A study of Mus musculus with 4 samples.

Results

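The genes Mef2a, Mef2b, Mef2c, Mef2d, Six4, Six5, Eya1, Eya3 and Eya4, which encode transcription factors and cofactors of muscle, were examined in mouse satellite cells that overexpressed NICD3, the part of the Notch3 receptor that enters the nucleus when the receptor is cleaved. They were found by their symbols, and all 9 were present among the 21264 genes of the deposited table. The 4 libraries form 1 group, with replicates 1 to 4 as the labels number them. Each was made from satellite cells of donor origin, re-isolated after myogenic progenitors of the iPAX3 line had been transplanted into a host, and the genotype of all 4 is NICD3 overexpression. The sources used here do not give the promoter that drives NICD3, the number of clones of the line or the host. Libraries of cells without NICD3 are not analysed here, and an effect of NICD3 was not measured. Levels are given as CPM, the reads of a gene per 1000000 reads counted, with the SD over 4 libraries.

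MEF2 proteins are MADS-box transcription factors that bind an A/T-rich site and act with the MyoD family to switch on genes of muscle differentiation. Proteins of the sine oculis homeobox family, such as SIX4, bind the MEF3 site, and EYA proteins are phosphatases that do not bind DNA themselves but serve the proteins of that family as coactivators. The EYA-SIX complex acts early, when Myf5, Myod1 and Myog are induced, and MEF2 acts later, together with Myog. In mouse myoblasts, Notch3 and MEF2C are known to antagonise each other.

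Promoter windows of RefSeq (GRCm38.p6), from 250 bases before to 50 bases after an annotated start, were found for 8 of the 9 genes. They were searched on both strands for the letters CTANNNNTAG (a MEF2 site), TCAGGTT (the core of a MEF3 site) and TGGGAA (the core of the site of RBPJ, the DNA-binding partner of NICD). Of the 8 genes, 1 held the MEF2 letters (Mef2a), 2 held the MEF3 letters (Mef2c and Six4) and 0 held the RBPJ letters. Among all 27025 genes with a window these shares were 4.23%, 4.73% and 28.3%. A match is a run of letters and not a bound site, and the expression values do not bear on binding. The stretches that follow are shown because the letters of the MEF2 and MEF3 sites fall there in the genes of these factors themselves, beside Myog, a known target of SIX4, and Des, a known target of MEF2. Capitals mark the match, no printed match overlaps another, and each stretch runs 5′ to 3′ on the strand of its gene.
Mef2a (chr7:67372851-67372920, minus strand, MEF2 letters): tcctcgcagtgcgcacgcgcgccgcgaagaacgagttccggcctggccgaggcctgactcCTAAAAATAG
Des (chr1:75360288-75360317, plus strand, MEF2 letters): gtcaggagggCTACAAATAGtgcagacagc
Mef2c (chr13:83503784-83503812, plus strand, MEF3 letters on the other strand): atAACCTGAaatgaagcaagtgtgtgcta
Six4 (chr12:73113323-73113352, minus strand, MEF3 letters on the other strand): gcctgggggaAACCTGAtcggccagatcca
Myog (chr1:134289880-134289966, plus strand, MEF3 letters): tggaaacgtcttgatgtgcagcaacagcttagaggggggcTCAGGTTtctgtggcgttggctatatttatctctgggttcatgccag
With the base before the start counted as -1 and the start as 1, the match of Mef2a began at base -2 and so lay across its start. The match of Des began at base 7, that of Mef2c at base -248 of the first of its 3 starts, that of Six4 at base -97 of 1 of its 2 starts and that of Myog at base -84. Of the genes listed below as targets, 3 of 14 MEF2 targets with a window held the MEF2 letters (Des, Xirp2 and Jun), and 1 of 9 EYA-SIX targets held the MEF3 letters (Myog). The 14 include Meg3, whose level is not analysed here.

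Depth, recovered from the table, was 12544138 to 13302916 reads per library, and 1 read was worth 0.0752 to 0.0797 CPM. A count of 0 allows a level of up to 3 reads, or 0.226 to 0.239 CPM, and this floor covers counting error only. Of 9 satellite cell markers, 9 reached 1 CPM in each library, beside 53.6% of all genes in the table. Pax7, the factor that marks these cells, averaged 130 ± 12.4 CPM. The same level was reached by 12 of 12 myofibre, 10 of 10 endothelial and 7 of 7 committed myogenic markers. It was also reached by 8 of 9 mural, 6 of 8 fibro-adipogenic, 5 of 10 macrophage and 4 of 6 glial markers. The count alone therefore does not check the label. Markers of other cells were present too. The 12 myofibre markers summed to 1522 to 3310 CPM over the libraries, the 7 markers of committed myogenic cells to 279 to 589 CPM, the 10 endothelial markers to 129 to 376 CPM and the 10 macrophage markers to 24.6 to 159 CPM. Mural markers (9) summed to 749 to 1727 CPM, fibro-adipogenic markers (8) to 5455 to 8287 CPM and glial markers (6) to 360.0 to 554 CPM. Nearly all of the fibro-adipogenic sum came from Col3a1, Gsn and Dpt (means of 4599, 1246 and 1118 CPM). Pdgfra, the receptor that defines fibro-adipogenic cells, averaged 0.768 CPM, Lum 1.38 CPM and Pi16 2.40 CPM. Dcn averaged 20.1 CPM, with 52.8 CPM in replicate 3, and Ly6a 8.29 CPM, with 18.2 CPM in replicate 1. Several of these genes are also expressed by satellite cells or, like Notch3 among the mural markers, by the modified cells. In such bulk libraries, fewer cells of a type and less RNA per cell cannot be told apart.

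Of the 9 transcription factor and cofactor genes, all but Mef2b were expressed throughout. In each of the 4 libraries 8 of 9 had 1 CPM or more, beside 53.6% of all genes in the table. The mean reached 10 CPM for 6 of them, namely Mef2a, Mef2c, Mef2d, Six4, Eya1 and Eya4. The median of the 9 means was 34.9 CPM, against 26.4 CPM over the 12879 genes that averaged at least 1 CPM and 4.83 CPM over the whole table.

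**Figure D1:**
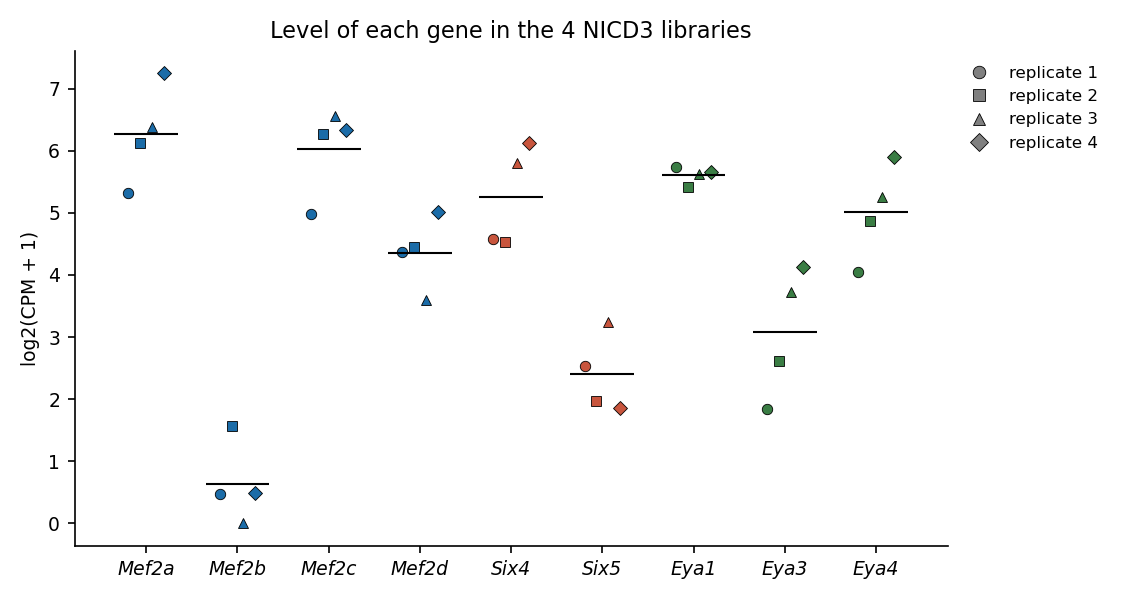
Level of each gene as log2(CPM + 1) in the 4 NICD3 libraries, with a symbol for each replicate and a line at the mean; blue, red and green stand for Mef2 genes, Six4 and Six5, and Eya genes. Mef2b sits near 0, Eya1 has almost the same level in every library, and Mef2a, Mef2c, Eya3 and Eya4 are lowest in replicate 1.

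Mef2a and Mef2c carried most of the reads of the Mef2 family. Mef2a (ENSMUSG00000030557, chromosome 7, 67231163 to 67372858, GENCODE M21), a MEF2 gene active in many tissues, had 39.1, 68.9, 82.7 and 151 CPM in replicates 1 to 4, a mean of 85.5 ± 47.5 CPM. Replicate 4 was highest and replicate 1 lowest, 3.87-fold apart. Mef2c (ENSMUSG00000005583, chromosome 13, 83504034 to 83667080), which is needed for sarcomere assembly in skeletal muscle and is also expressed by endothelial cells, macrophages and neurons, had 30.7, 76.0, 93.3 and 79.8 CPM, a mean of 70.0 ± 27.2 CPM. Replicate 1 stood below the other 3, which lay between 76.0 and 93.3 CPM. Without replicate 1 the mean of Mef2c was 83.0 CPM and its SD on the log2(CPM + 1) scale fell to 0.15, against 0.71 over all 4.

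Mef2d (ENSMUSG00000001419, chromosome 3, 88142372 to 88172086), a broadly expressed member known to bind genes of muscle differentiation, had 19.8, 20.8, 11.1 and 31.5 CPM, a mean of 20.8 ± 8.35 CPM. Its lowest library was replicate 3, the highest one for Mef2c. Mef2b (ENSMUSG00000079033, chromosome 8, 70139711 to 70167488), best known from germinal centre B cells, had 5, 26, 0 and 5 reads, or 0.391, 1.95, 0 and 0.399 CPM. Only replicate 2 passed 1 CPM, and replicate 3 was below the floor of 0.230 CPM. Its exons share 62 bases with Borcs8, a lysosome-positioning gene on the same strand at 24.2 ± 6.24 CPM, so part of these few reads may be shared between both genes.

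The other gene annotated across a Mef2 gene and present in the table is Lysmd4, on the opposite strand of Mef2a, with 302 shared exon bases of 14681 in Mef2a and a level of 23.9 ± 11.3 CPM. Lysmd4 had 23.4, 9.17, 36.5 and 26.4 CPM in replicates 1 to 4, lowest in replicate 2, where Mef2a was not lowest. Whether the counting used the strand is not stated, so reads in the shared bases cannot be assigned.

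Of Six4 and Six5, Six4 was the more abundant. Six4 (ENSMUSG00000034460, chromosome 12, 73099609 to 73113456), which acts in muscle precursors, had 22.8, 22.1, 54.9 and 69.0 CPM, a mean of 42.2 ± 23.5 CPM. Replicates 1 and 2 lay close together, and replicates 3 and 4 were both above them. Six5 (ENSMUSG00000040841, chromosome 7, 19094594 to 19098549) lies next to Dmpk, the gene whose human counterpart carries the repeat of myotonic dystrophy, and in human cells that repeat also affects the counterpart of Six5. Six5 had 4.77, 2.93, 8.50 and 2.63 CPM, a mean of 4.71 ± 2.70 CPM from 33 to 111 reads, and replicate 3 was highest.

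Dmpk ends 772 bases before Six5 on the same strand and had 73.2, 143, 115 and 69.0 CPM, with replicate 2 highest. Per kb of exon, Dmpk stood at 23.1 ± 8.19 CPM per kb and Six5 at 1.57 ± 0.897 CPM per kb. Dmwd, the next gene before Dmpk, stood at 6.03 ± 3.05 CPM per kb. Six5 and Dmwd were both highest in replicate 3 and both lowest in replicate 4, where Dmpk was lowest too. Of all genes of at least 1 CPM, 29.6% were lowest in replicate 4. Six5 had 33 reads there and 39 in replicate 2, so its lowest library was barely set apart.

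Among the EYA genes, Eya1 was the steadiest. Eya1 (ENSMUSG00000025932, chromosome 1, 14168954 to 14310235), whose human counterpart is mutated in branchio-oto-renal syndrome, had 52.2, 41.9, 48.4 and 49.6 CPM, a mean of 48.0 ± 4.34 CPM. The 4 libraries lay within 1.24-fold of each other. The coefficient of variation was 9.04%, against 4.02% from counting error alone at its mean of 620 reads. On the log2(CPM + 1) scale its SD of 0.13 was lower than that of all but 0.804% of the 9202 genes that averaged at least 10 CPM, whose median SD was 0.62.

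Eya4 (ENSMUSG00000010461, chromosome 10, 23102963 to 23350786), a coactivator whose human counterpart is known from hearing loss and heart muscle disease, had 15.6, 28.3, 37.0 and 58.8 CPM, a mean of 34.9 ± 18.2 CPM. Replicate 1 was lowest and replicate 4 highest, as for Mef2a. Eya3 (ENSMUSG00000028886, chromosome 4, 132638987 to 132724765), a broadly expressed phosphatase of the family with a role in the DNA damage response, had 2.58, 5.11, 12.2 and 16.4 CPM, a mean of 9.09 ± 6.38 CPM from 33 to 206 reads. Its lowest and highest libraries were 6.36-fold apart, the widest ratio among the 8 genes with reads in every library, and again they were replicates 1 and 4. Eya3 had an SD of 1.04 on the log2(CPM + 1) scale; among the 9202 genes of at least 10 CPM, a level just above its own mean, 2.08% had an SD of 1 or more.

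Levels of different genes were compared per kb of exon, since CPM grows with the length of a transcript. In this order the means were 6.15 ± 0.556 CPM per kb for Eya1, 5.82 ± 3.23 for Mef2a, 4.45 ± 1.73 for Mef2c, 3.89 ± 2.16 for Six4, 3.71 ± 1.93 for Eya4, 3.48 ± 1.40 for Mef2d, 1.61 ± 1.13 for Eya3, 1.57 ± 0.897 for Six5 and 0.489 ± 0.617 for Mef2b. The ranges of every pair of neighbours in this order overlapped, so the order is that of the means and not of separate levels. By the length of the longest annotated transcript in place of all exons, Mef2a came first with 15.4 ± 8.58 CPM per kb, followed by Mef2c (11.1 ± 4.33) and Eya1 (11.0 ± 0.994). Mef2a and Mef2c are the genes whose annotated exons (14681 and 15715 bases) exceed their longest transcript (5538 and 6277 bases) the most.

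**Figure D2:**
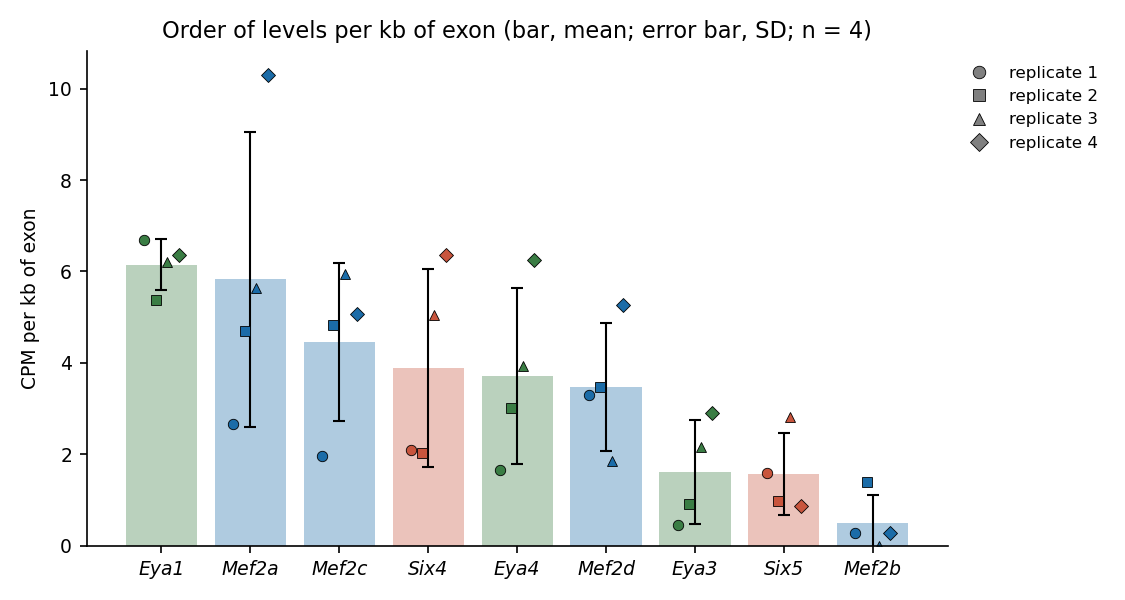
Mean level per kb of exon (bars, in CPM per kb, with SD over 4 libraries and a symbol for each replicate), from the highest to the lowest mean; the error bar of Mef2b is cut at 0. The genes from Eya1 to Mef2d lie between 3.48 and 6.15 CPM per kb with overlapping ranges, and Eya3, Six5 and Mef2b lie lower.

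Within the families, 10 pairs of genes were compared inside each library on the scale of log2(CPM per kb + 0.1), by an exact permutation test that flips the signs of the 4 differences (two-sided). With 4 libraries its smallest p is 0.125, so no pair could pass 0.05. Mef2a exceeded Mef2b by 3.79 ± 1.86, Mef2c exceeded Mef2b by 3.46 ± 1.84 and Mef2d exceeded Mef2b by 3.13 ± 1.33, each in 4 of 4 libraries (exact p = 0.125, adjusted 0.179, n = 4). The pseudocount set much of these gaps, since Mef2b had few reads, and with 1 in place of 0.1 they were 2.16, 1.88 and 1.61. In replicate 3, where Mef2b had no read, Mef2a and Mef2c were at least 34.4-fold and 36.3-fold higher per kb than the 3 reads that a count of 0 allows for Mef2b, and Mef2d at least 11.3-fold. The SD of each gap was large beside the gap itself, while its sign was the same in each library.

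How far Mef2a, Mef2c and Mef2d stood apart, and in how many libraries, depended on which length divided the reads. The order of their means did not. Per kb of all exons, Mef2a minus Mef2c was 0.33 ± 0.51 and positive in 2 of 4 libraries (exact p = 0.5, adjusted 0.556, n = 4), and 0.10 without replicate 4. Mef2a minus Mef2d was 0.66 ± 0.79, with that sign in 3 of 4 (exact p = 0.25, adjusted 0.313, n = 4), and 0.36 without replicate 3. Mef2c minus Mef2d was 0.33 ± 0.99, with that sign in 2 of 4 (exact p = 0.75, adjusted 0.750, n = 4), -0.10 without replicate 3 and 0.68 without replicate 1. Per kb of the longest transcript, these 3 differences were 0.42, 1.90 and 1.49, each positive in 4 of 4 libraries (exact p = 0.125, the smallest that 4 libraries allow). As shares of the summed Mef2 level per kb, Mef2a made up 39.1 ± 8.11%, Mef2c 31.5 ± 9.62%, Mef2d 25.9 ± 10.9% and Mef2b 3.60 ± 4.27%. Mef2d held the largest share in replicate 1, with 40.3%, and a share of 13.8% in replicate 3. These shares rest on the length of all exons. Per kb of the longest transcript, Mef2a exceeded Mef2d in 4 of 4 libraries, replicate 1 among them.

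Six4 exceeded Six5 by 1.23 ± 1.03 in 4 of 4 libraries (exact p = 0.125, adjusted 0.179, n = 4), and by 0.73 without replicate 4 and 1.88 per kb of the longest transcript. The gap was 0.39, 0.99, 0.82 and 2.73 in replicates 1 to 4, so replicate 4 set much of the mean. Eya1 exceeded Eya4 by 0.86 ± 0.80, Eya1 exceeded Eya3 by 2.16 ± 1.12 and Eya4 exceeded Eya3 by 1.30 ± 0.41, each in 4 of 4 libraries with the same exact p of 0.125 (adjusted 0.179, n = 4). Eya1 and Eya4 differed by 1.95 in replicate 1 and by 0.02 in replicate 4. Without replicate 1 their difference was 0.49, and without division by length it was 0.61, positive in 3 of 4 libraries. Per kb of the longest transcript, Eya4 exceeded Eya3 by 1.99. Eya1 made up 76.0% of the summed level of these 3 genes in replicate 1, 57.9% in replicate 2, 50.4% in replicate 3 and 41.0% in replicate 4.

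**Figure D3:**
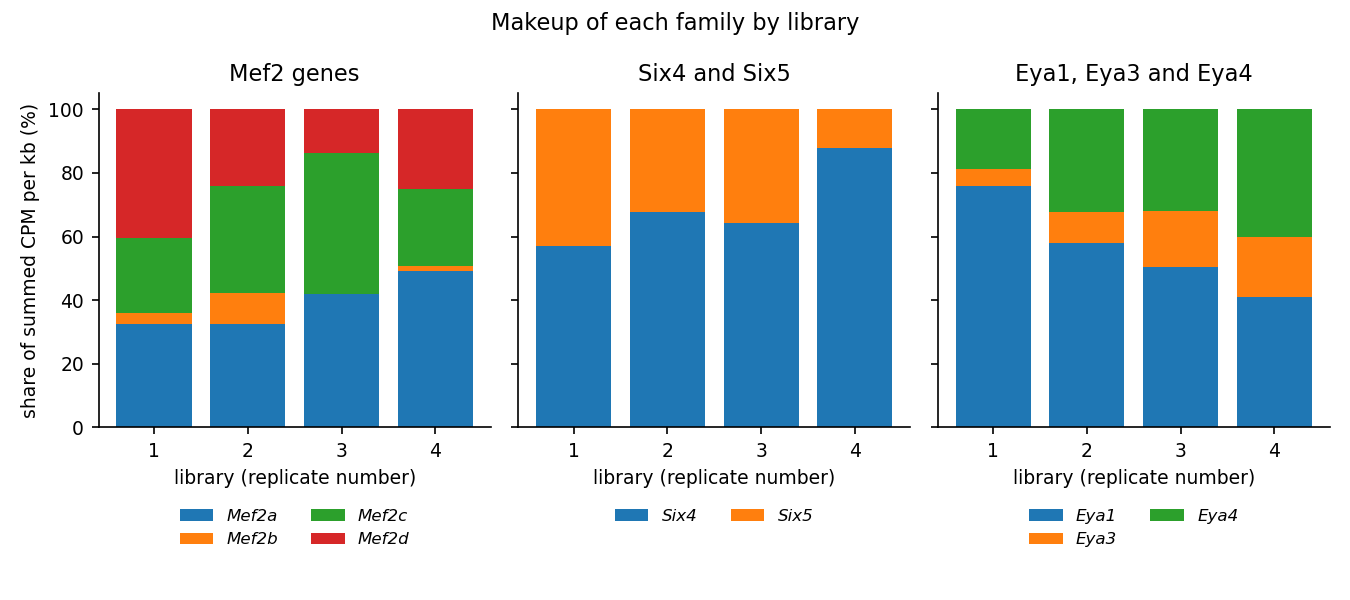
Share of each gene (% of the summed CPM per kb of exon) within the Mef2 genes, Six4 and Six5, and the Eya genes examined, for each of the 4 libraries. Eya1 holds 41.0 to 76.0% of its group and Six4 57.0 to 87.9% of its pair. No Mef2 gene holds the largest share in every library by this length. Per kb of the longest transcript, Mef2a exceeded the other Mef2 genes in 4 of 4 libraries.

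The libraries differed in a like way for several of these genes. Of the 8 that averaged at least 1 CPM, 4 were lowest in replicate 1, beside 28.4% of all genes at that level. The count was 5 for a maximum in replicate 4, beside 28.6% of all genes, and 3 for both together (Mef2a, Eya3 and Eya4), beside 13.7%. With so few genes these counts describe the genes named and no more. Base composition moved with the same libraries. Over 9195 genes with at least 10 CPM, the Spearman coefficient between transcript GC content and the difference of a library from the mean of each gene was 0.435 in replicate 1, 0.219 in replicate 2, 0.0061 in replicate 3 and -0.555 in replicate 4. The longest transcripts of Mef2a, Eya4 and Mef2c hold 42.0, 41.3 and 40.8% GC and that of Eya3 50.5%.

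After a correction of each library for GC content and transcript length, the SD of Mef2a was 0.44, against 0.79 as measured on the log2(CPM + 1) scale, and that of Eya4 was 0.39, against 0.77. Replicate 4 exceeded replicate 1 by 1.06 for Mef2a and by 0.90 for Eya4 after the correction, against 1.93 and 1.85 before it. For Mef2c this difference was 0.28 after the correction and 1.35 before it. Eya3 changed little, with an SD of 1.05 after and 1.04 before, and replicate 4 above replicate 1 by 2.35 after and 2.28 before. Six4 had an SD of 0.61 after and 0.83 before. Six5 had 0.55 after and 0.63 before, and its lowest library was replicate 2 after the correction and replicate 4 before it. The SD of Mef2d was 0.71 after and 0.59 before, and that of Eya1 0.18 after and 0.13 before.

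**Figure D4:**
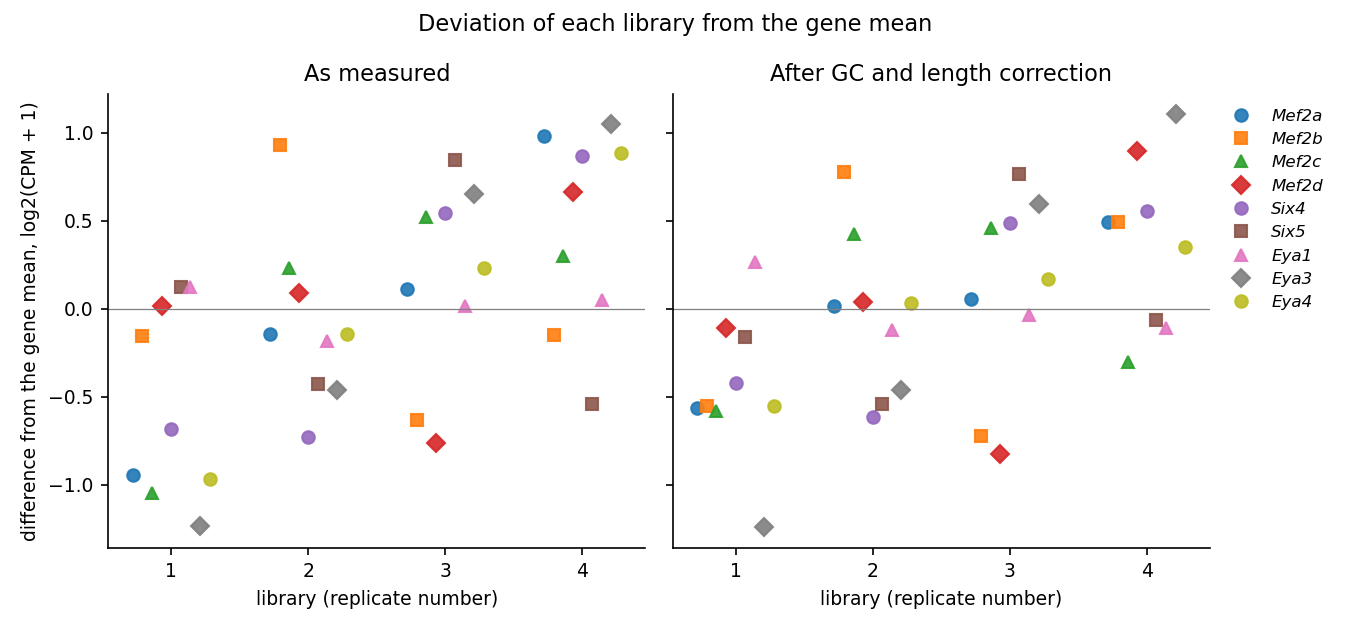
Difference of each library from the mean of a gene on the log2(CPM + 1) scale, as measured (left) and after a regression on transcript GC content and length (right), with a symbol and colour for each gene. Mef2a and Eya4 draw closer to 0 in replicates 1 and 4 after the correction, while Eya3 keeps its place.

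Markers of other cells also differed between the libraries. The mean log2(CPM + 1) of the 12 myofibre markers was 5.44, 6.77, 6.80 and 5.97 in replicates 1 to 4, with 8 of 12 lowest in replicate 1 (28.4% of all genes of at least 1 CPM), and that of the 7 committed markers 4.01, 5.14, 5.39 and 4.77, with 4 of 7 lowest there. Macrophage markers stood at 1.39, 3.43, 2.36 and 3.05, with all 9 that averaged at least 1 CPM lowest in replicate 1, and endothelial markers at 4.47, 4.18, 2.72 and 3.18, with 8 of 10 highest there (26% of all genes of at least 1 CPM). Mef2c was lowest in replicate 1, where the myofibre, committed and macrophage markers were also lowest and the endothelial markers highest. The part of these cells in the level of Mef2c was not tested.

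Most genes known to control MEF2, and most of its targets, had reads in all libraries. Of 22 listed regulators, 20 had 1 CPM or more in each library, beside 53.6% of all genes in the table, and their median level was 37.5 CPM. The coactivator acetyltransferase gene Crebbp led with 192 ± 97.8 CPM, followed by Hdac3 with 172 ± 98.6 CPM, a deacetylase that works in complex with class IIa enzymes, and Ppp3ca with 118 ± 79.3 CPM, a catalytic subunit of calcineurin, the phosphatase that activates MEF2. Ppp3ca had 45.3, 88.6, 109 and 230 CPM in replicates 1 to 4, lowest and highest in the same libraries as Mef2a. Of all genes of at least 1 CPM, 13.7% were lowest in replicate 1 and highest in replicate 4. The longest transcripts of Ppp3ca and Mef2a hold 45.4 and 42.0% GC, and the part of base composition was not tested.

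Class IIa histone deacetylases bind MEF2 and repress its targets. Hdac4 had 100, 34.9, 76.8 and 75.4 CPM, a mean of 71.8 ± 27.2 CPM, with replicate 2 lowest. Hdac5 and Hdac7 stood at 23.1 ± 4.50 and 13.6 ± 8.17 CPM. Per kb of exon the means were 4.54 ± 1.72 CPM for Hdac4, 2.63 ± 0.512 for Hdac5 and 2.01 ± 1.21 for Hdac7, within the range of the Mef2 genes other than Mef2b or below it. Hdac9, itself known as a MEF2 target, had 12 reads (0.938 CPM) in replicate 1 and 0 in the others.

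**Figure D5:**
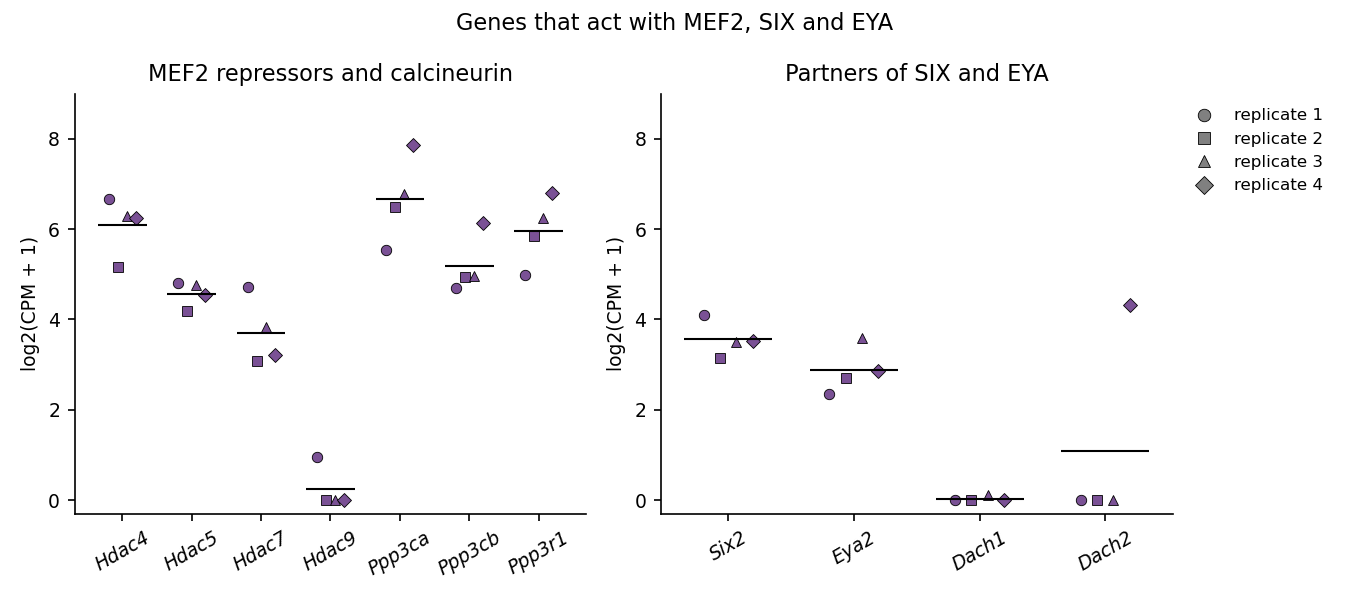
Level as log2(CPM + 1) of class IIa deacetylases and calcineurin subunits (left) and of Six2, Eya2, Dach1 and Dach2 (right), with a symbol for each replicate and a line at the mean. Hdac9 and Dach1 sit at or near 0, and Dach2 has reads in replicate 4 alone.

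Of 17 MEF2 targets matched, 15 had 1 CPM or more in each library (53.6% over the whole table), with a median of 15.9 CPM. The top of the list was Jun at 3781 ± 783 CPM and the nuclear receptor gene Nr4a1 at 816 ± 244 CPM, which are immediate early genes with many other inputs, followed by the muscle intermediate filament gene Des at 304 ± 129 CPM. Des had 324, 400, 375 and 116 CPM, lowest in replicate 4, where Mef2a was highest. Of all genes of at least 1 CPM, 29.6% were lowest in replicate 4, and the longest transcript of Des holds 56.5% GC. The mean log2(CPM + 1) of the target list was 3.80, 4.58, 4.59 and 4.14 in replicates 1 to 4, and 7 of its 16 genes that averaged at least 1 CPM were lowest in replicate 1, beside 28.4% of all genes at that level.

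Of 11 partners in the EYA-SIX network, 9 had 1 CPM or more in each library (53.6% over the whole table), with a median of 11.2 CPM. Ski, a corepressor related to DACH proteins, led with 120 ± 65.8 CPM, and Aes (Tle5 in the table), a Groucho-related corepressor, had 55.0 ± 24.1 CPM. Per kb of exon Six2 stood at 5.28 ± 1.62 CPM per kb and Eya2 at 2.27 ± 1.02 CPM per kb, and both overlapped in range with genes of their own family.

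DACH proteins are corepressors that join EYA-SIX complexes. Dach1 had a count of 0 in replicates 1, 2 and 4 and 1 read in replicate 3. Dach2 had 0 reads in replicates 1 to 3 and 239 reads, or 19.1 CPM, in replicate 4. Replicate 4 thus stood alone for Dach2, and the floor in the other 3 was 0.226 to 0.235 CPM.

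All 14 listed EYA-SIX targets had 1 CPM or more in each library (53.6% over the whole table), and their median was 95.5 CPM. Igfbp5, an IGF-binding protein gene known to depend on Six5 in mouse cells, led with 6101 ± 1821 CPM, followed by the glycolytic gene Aldoa with 1010 ± 528 CPM and the fast-fibre gene Actn3 with 540.0 ± 85.2 CPM. Igfbp5 was lowest in replicate 4 with 3573 CPM and highest in replicate 2, where Six5 was not highest. Six5 was lowest in replicate 4 too, but with 33 reads there against 39 in replicate 2. Aldoa lies on several rows of the table, of which the most abundant was used. The mean log2(CPM + 1) of these targets was 6.41, 7.21, 7.15 and 6.36 in replicates 1 to 4, with 8 of 14 lowest in replicate 4, beside 29.6% of all genes of at least 1 CPM. Of the 14, 10 have a longest transcript of over 50% GC, beside 6225 of 12864 genes of at least 1 CPM. Replicate 4 is the library in which genes of high GC content stood lower. Several of these targets also serve as markers above: Ckm, Actn3, Tnnt3, Pvalb and Atp2a1 as myofibre markers, Myod1 and Myog as committed markers. Myf5 is also a satellite cell marker, and Ckm is also listed among the MEF2 targets. The mean of the myofibre markers was 5.44, 6.77, 6.80 and 5.97 in replicates 1 to 4. The list is thus no readout separate from those markers. The parts of base composition and of cell makeup in this count were not tested.

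For each gene of 10 CPM or more, the most alike genes were sought among 9201 others by the root mean square difference of the centred log2(CPM + 1) values over the 4 libraries. Aph1b, Mbnl2 and Hnrnpul2 were nearest to Mef2a (0.03 each), Dipk1a, Yes1 and Pter to Mef2c (0.03 to 0.05), and Arid1b, Tmem170b and Ugcg to Mef2d (0.03 to 0.05). Gpalpp1, 4931406C07Rik and Tsg101 were nearest to Six4 (0.04 to 0.06), Pms1, Timm17a and Prep to Eya1 (0.02 to 0.03), and Med13, Ube2d3 and Cd109 to Eya4 (0.01 to 0.04). Between 17 and 58 genes lay within 0.1 of each gene, so 4 libraries do not single out a few. The closest pair among the genes examined was Mef2a and Eya4, at 0.08, where 28 other genes were nearer to Mef2a. The median distance of all candidates from Mef2a was 0.82.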

How the data were processed

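Per the labels' protocols, RNA was isolated with Buffer RLT and beads, cDNA came from a NEBNext low-input kit and libraries from Nextera XT. The authors deposited log2 CPM values that carry a constant offset. Trimmomatic 0.33 and FastQC, as well as featureCounts and edgeR, are listed with the build mm10 in the submitters' processing notes, in no stated order. Aligner, annotation and strand setting are not stated there.

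The offset of 0.0548 CPM was removed, which gave whole reads for 100% of values (tolerance 1e-06 of a value). Coordinates, exon length and transcript GC content come from GENCODE M21, on the same assembly as mm10, where 99.6% of identifiers matched. Analyses used Python 3.11.15, numpy 2.4.6, pandas 2.3.3 and SciPy 1.17.1. Pseudocounts were 1 CPM and, per kb, 0.1. Reads were not tested with a count model, since there is 1 group. The read recovery and GC correction were tested on simulated data, and the sign-flip test on fixed differences with a known p. P-values adjusted by Benjamini-Hochberg cover 10 pairs.

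The members and lists were chosen with earlier results of these data known. Genes named are the 9 members, the 3 most abundant of each of 4 lists, class IIa Hdac and Dach genes, overlapping or adjacent genes and the 3 most alike genes; Xirp2, Six2, Eya2 and others were named after their values were seen. A gene that this rule names is not reported here. The level of Meg3, a listed MEF2 target, is not analysed here; its promoter window was searched. Nothing states that the libraries came from separate animals, so the spread may be technical. Alternatives were scaling, pseudocount, length, minimum level, GC correction and leaving out each library.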

Additional observations from a re-analysis of the deposited data

Results flagged for a closer look

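Each of 45 quantities (levels of the genes examined and of the named companion genes, list means and pair differences) was checked with Dixon's criterion for 1 library far from the rest; chance gives about 1 such case in 20. There were 3. Dach2, a corepressor that joins EYA-SIX complexes, had 19.1 CPM (239 reads) in replicate 4 and 0 reads in the other 3. Hdac9, a class IIa deacetylase, had 0.938 CPM (12 reads) in replicate 1 and 0 reads in the other 3. Dach1 had 0.0765 CPM, which is 1 read, in replicate 3 and 0 reads elsewhere, below the floor of 3 reads in every library. Of the 9 genes examined, 0 were set apart in this way.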

How the results depend on the processing

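Of 231 recomputed values for 33 results, 80 belong to the 10 pairs, where 79 kept the sign and none could pass 0.05. Of the 79, 60 stayed within 1.5-fold and 19 did not. Of the other 151 values, 136 stayed within the spread between libraries or within 1.5-fold and 15 moved. For levels and list means the limit was the SD over the same libraries, which leaving out a library cannot exceed. The count of genes at 1 CPM or more cannot fall when a library is left out. Those values were bound to count as unmoved and do not measure stability. Without division by length, Mef2a, Mef2c and Mef2d exceeded Mef2b by 7.33, 7.09 and 5.37. Mef2a and Mef2c then exceeded Mef2d by 1.96 and 1.72, Six4 exceeded Six5 by 3.11 and Eya4 exceeded Eya3 by 2.10. Eya1 then exceeded Eya4 by 0.61, in 3 of 4 libraries. Mef2c minus Mef2d ranged from -0.10 to 0.68 when a replicate was left out, lowest without replicate 3. The spread of Mef2c ranged from 0.15 (without replicate 1) to 0.85, that of Mef2b from 0.28 to 0.80, that of Mef2d from 0.35 to 0.72, that of Six5 from 0.36 to 0.77 and that of Eya1 from 0.054 to 0.16. GC and length correction gave a spread of 0.44 for Mef2a and 0.39 for Eya4. With a pseudocount of 0.1 the spread of Mef2b was 1.78, and with a pseudocount of 5 it was 0.21, while Six5 had 0.38 and Eya3 0.69. The mean log2 level of MEF2 regulators was 4.73, with 4.94 over members of at least 1 CPM and 4.48 with a pseudocount of 0.1; that of EYA-SIX partners was 3.80, with 4.17 and 3.21. Where no alternative's construction shows the cause, the cause was not tested. Pairing of libraries between conditions was not possible because there is only 1 group, and only genes were paired, inside each library. Depth limits Mef2b, Dach1 and Hdac9, which had at most 26, 1 and 12 reads in a library.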

Other observations

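Several kinases and coactivators that feed MEF2 were present, named here after their values were seen. Mapk14, the p38 kinase that phosphorylates MEF2 in muscle, stood at 75.9 ± 22.9 CPM, and Mapk7 at 37.7 ± 15.1 CPM. The calcium/calmodulin kinases Camk2d and Camk2g reached 39.6 ± 12.8 and 37.4 ± 11.3 CPM. Maml1, a Mastermind gene that serves Notch and is also known as a coactivator of MEF2C, had 8.29, 14.7, 25.9 and 6.86 CPM in replicates 1 to 4, highest in replicate 3, as Mef2c was. The calcineurin regulatory subunit Ppp3r1 (41.4% GC) had 30.9, 56.3, 74.8 and 110.0 CPM. It was lowest in replicate 1 and highest in replicate 4, like the catalytic subunit Ppp3ca and 13.7% of all genes of at least 1 CPM. Ppargc1a, a coactivator of MEF2 in slow fibres, was low, with 1.56, 0.977, 1.99 and 0 CPM in replicates 1 to 4.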
